A study of Mus musculus with 16 samples.

Results

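The 10 genes described here encode hepatocyte carriers of bile acids and organic anions, among them the Slco carriers that take up statins. They were chosen by name, as Slc10a1, Slco1a1, Slco1a4, Slco1b2, Slco2b1, Abcb11, Abcb4, Abcc2, Abcc3 and Slc51b, and were found on the array through the RefSeq accession that each probe carries. All 10 were bright enough to be tested, among 15053 named genes. The cells were primary hepatocytes of male C57Bl/J mice, cultured in Williams Medium E and treated from 48 h after plating. One set of cultures received SQ1 (100 µM per the labels), another received pravastatin (30 µM), and the reference cultures were left untreated, all for 48 h. The compound SQ1, squalestatin 1, blocks squalene synthase. Squalestatins act at nanomolar doses, so the unit of its labelled dose is uncertain, and the 2 drugs were in any case not given at matched doses. Treated and control RNA were hybridized together in different dyes on 2-colour Agilent arrays, 16 in total, of which 8 compared SQ1 and 8 compared pravastatin with untreated cells, with dyes swapped on 4 of each 8. The deposited array names give the same control numbers for both drugs and the series states 8 controls, so both comparisons may share control RNA. The cultures were mixed cell preparations measured in bulk, in which fewer cells of a type and less RNA per cell cannot be told apart.

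Bile acids circulate between liver and intestine, and hepatocytes move them across 2 membranes. On the sinusoidal side, facing the blood, Slc10a1 (NTCP) takes up conjugated bile acids with sodium, and the Slco carriers (OATPs) take up organic anions, including statins such as pravastatin, without sodium. On the canalicular side, ATP-driven pumps secrete bile salts (Abcb11), phospholipid (Abcb4) and conjugated anions (Abcc2) into bile. Abcc3 and the heterodimer of Slc51a and Slc51b return bile acids and conjugates to the blood, a route known to be used more in cholestasis.

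Pravastatin lowered most of these transcripts, and SQ1 lowered 4 of them. With pravastatin all 10 passed the test: 9 fell and only Abcc2 rose. With SQ1, 7 passed: Slc10a1, Slco1a1, Slco1b2 and Abcb11 fell, and Slco1a4, Abcc2 and Slc51b rose. These counts stand against a wide background. Over all genes tested, 66.7% passed with pravastatin (30.9% higher and 35.8% lower) and 32.3% with SQ1 (15.7% higher and 16.5% lower). The median log2 fold change of the 10 transporters was -0.15 with SQ1 and -0.997 with pravastatin, and that of all genes tested was -0.0023 with SQ1 and -0.012 with pravastatin. The test was a limma fit over all 16 arrays, with p adjusted by Benjamini-Hochberg over the 15053 genes and calls made below 0.05.

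The ratios given below are log2 ratios of treated over control signal on 1 array, with the dye effect removed, and are listed as lowest, median and highest of 8 arrays. A log2 fold change is the estimate of the limma fit with its standard error, over 8 arrays per drug. An adjusted p within replicate numbers pairs the same-numbered arrays of both drugs, and that pairing is uncertain. Levels are log2 intensities of 1 channel after normalization, and serve only to compare samples for the same probe.

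**Figure D1:**
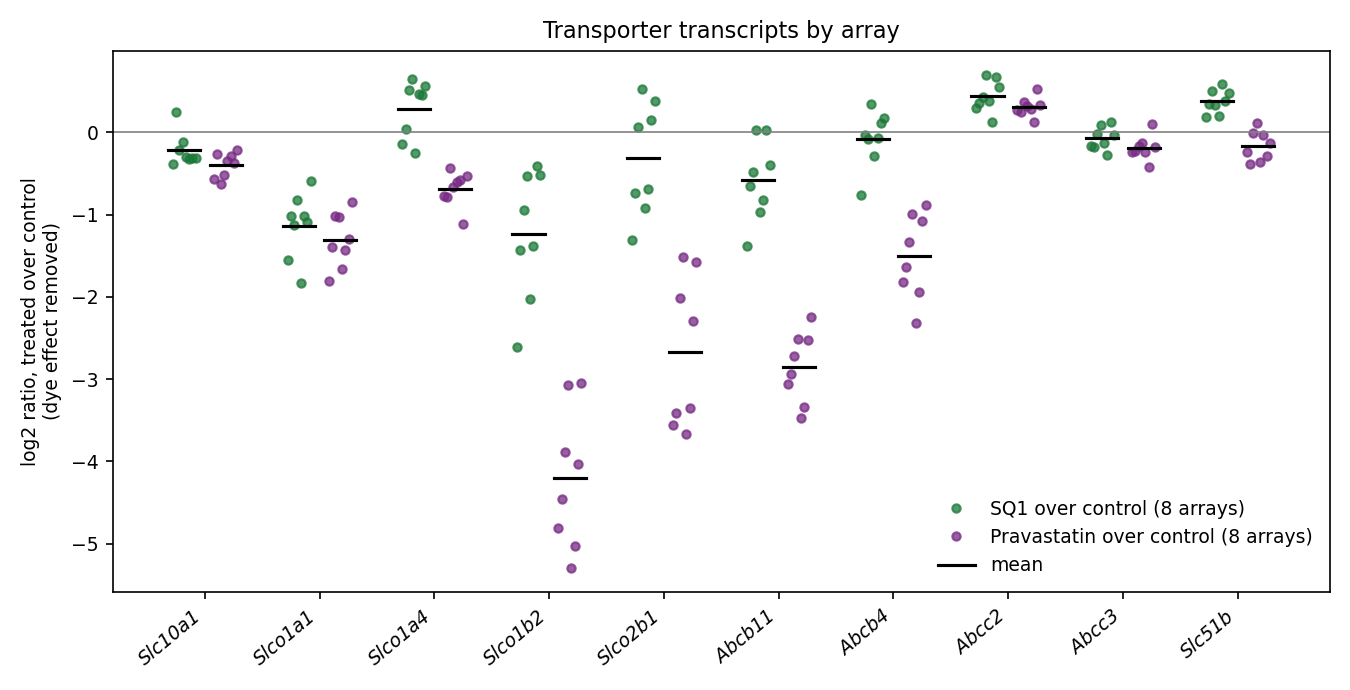
Log2 ratio of treated over control signal (vertical axis) for each transporter on each of the 8 SQ1 arrays (green, left) and the 8 pravastatin arrays (purple, right), with the dye effect removed and black bars at the mean. The pravastatin arrays of Slco1b2 lie between -5.29 and -3.05 and those of Abcb11 between -3.48 and -2.25, while Abcc2 lies above 0 on all 16 arrays.

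Slco1b2 encodes OATP1B2, the mouse counterpart of the human hepatic uptake carriers OATP1B1 and OATP1B3 and an uptake route for statins. Its promoter is shown because this gene had the lowest fold change of the 10 with both drugs by the processing used throughout. With SQ1, Slco1a1 was lower with the Agilent processed signals (-2.42, against -1.23 for Slco1b2) and within slide 2 (-0.91, against -0.60). The 120 bases before the RefSeq start, chr6:141629398-141629517 of GRCm38.p6 on the plus strand, read 5′ to 3′ with a match to the HNF1 motif GTTAATNAT in capitals:
Slco1b2: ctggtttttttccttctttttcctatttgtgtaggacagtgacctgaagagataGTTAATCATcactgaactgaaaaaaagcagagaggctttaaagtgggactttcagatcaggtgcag

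The match begins at base -66 from the start. HNF1 is a homeodomain factor of hepatocytes, and 0.801% of 32851 RefSeq promoter windows, each from 250 bases before to 50 after a start and thus longer than the stretch shown, held this motif on either strand.

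In SQ1-treated cells the level of Slco1b2 was 11.3, 11.8 and 12.3, against 11.5, 13.1 and 14.1 in the control channels of those arrays. In pravastatin-treated cells it was 8.43, 8.88 and 9.05, against 11.6, 13.2 and 14.1 in their controls. Every pravastatin channel lay below every control channel, whereas the SQ1 and control channels overlapped. The ratios on single arrays were -2.61, -1.16 and -0.41 with SQ1 and -5.29, -4.25 and -3.05 with pravastatin, all below 0. The log2 fold change was -1.23 ± 0.27 with SQ1 (2.35-fold lower, adjusted p = 0.00224) and -4.20 ± 0.27 with pravastatin (18.4-fold lower, adjusted p = 9.13e-10). Among all 15053 genes, Slco1b2 ranked 15 from the lowest with SQ1 and 5 from the lowest with pravastatin. The drugs differed by 2.97 ± 0.38 (adjusted p = 7.30e-06).

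Slco2b1 encodes OATP2B1, an uptake carrier of sulphated steroids and statins found in many tissues. Its ratios were -1.31, -0.31 and 0.52 with SQ1 and -3.66, -2.82 and -1.52 with pravastatin. The SQ1 arrays were split evenly, 4 above 0 and 4 below, and all pravastatin arrays lay below all SQ1 arrays. The log2 fold change was -0.32 ± 0.27 with SQ1 (adjusted p = 0.394) and -2.68 ± 0.27 with pravastatin (6.39-fold lower, adjusted p = 1.57e-07), a difference of 2.36 ± 0.38 (adjusted p = 6.49e-05). A dimmer probe for the same transcript gave -0.37 with SQ1 and -2.56 with pravastatin.

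Slco1a1 encodes OATP1A1, a rodent carrier of bile acids and steroid conjugates. It fell with both drugs. The ratios were -1.83, -1.06 and -0.60 with SQ1 and -1.81, -1.35 and -0.84 with pravastatin, below 0 on all 16 arrays and overlapping between the drugs. Log2 fold changes were -1.13 ± 0.12 with SQ1 (adjusted p = 3.67e-06, rank 19 from the lowest) and -1.31 ± 0.12 with pravastatin (adjusted p = 6.58e-08). The difference between the drugs was 0.18, with a 95% interval of -0.18 to 0.54 (adjusted p = 0.403). Taken within replicate numbers, the same difference had an adjusted p of 0.0259. The probe was dim: it was well above background on 6 of 8 SQ1 channels and 4 of 8 pravastatin channels, against 8 of 8 control channels for each drug. The background correction adds an offset that shrinks ratios of dim probes, and with the Agilent processed signals the log2 fold changes were -2.42 with SQ1 and -3.68 with pravastatin, differing by 1.26 (adjusted p = 0.00873).

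Slco1a4 encodes OATP1A4, which carries bile acids, digoxin and statins and is known in mouse liver as a target of the xenobiotic receptor PXR. It went in opposite directions with the 2 drugs. With SQ1 the ratios were -0.25, 0.46 and 0.65, above 0 on 6 of 8 arrays, and with pravastatin they were -1.11, -0.63 and -0.43, below 0 on 8 of 8. The arrays of the drugs did not overlap. Log2 fold changes were 0.29 ± 0.10 with SQ1 (adjusted p = 0.0294) and -0.68 ± 0.10 with pravastatin (adjusted p = 8.60e-06), and the difference was 0.97 ± 0.14 (adjusted p = 1.73e-05). The SQ1 call was lost without any 1 of SQ1 replicates 3, 4, 6, 7 and 8 (adjusted p from 0.0724 to 0.0882), with slide as a random block (0.141) and with the Agilent processed signals (0.54, adjusted p = 0.0539). The pravastatin channels were well above background on 3 of 8 arrays, and the Agilent signals gave -2.29 for pravastatin.

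In the RefSeq annotation, Slco1b2, Slco1a4 and Slco1a1 lie in 1 cluster on chromosome 6, between Slco1c1 and Slco1a5, and this order holds 1 more tested gene. That gene, Slco1a6, had a log2 fold change of 0.13 ± 0.03 with SQ1 (adjusted p = 0.00811) and -0.000023 ± 0.03 with pravastatin (adjusted p = 1.00). The 3 transporters of the cluster thus did not share a direction with SQ1, though the call for Slco1a4 was lost in the settings named above. With pravastatin all 3 fell. These genes are close paralogs, and whether a probe also binds a neighbour's transcript was not tested.

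Slc10a1, the sodium-dependent bile acid carrier NTCP, was read by 2 probes that gave very different sizes. Their mean log2 intensities were 16.5 for the brighter and 8.97 for the dimmer. No channel of the brighter probe was marked saturated, and whether so bright a probe understates the fall was not tested. The brighter probe, which stands for the gene under the rule used for all genes, had ratios of -0.39, -0.30 and 0.25 with SQ1 and -0.63, -0.35 and -0.21 with pravastatin. It was below 0 on 7 of 8 SQ1 arrays and on all 8 pravastatin arrays. Its log2 fold changes were -0.21 ± 0.06 with SQ1 (adjusted p = 0.0134) and -0.40 ± 0.06 with pravastatin (adjusted p = 2.38e-05), with a difference of 0.18 ± 0.09 (adjusted p = 0.0866, or 0.0320 within replicate numbers).

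The dimmer probe of Slc10a1, with the same accession, had ratios of -1.90, -0.80 and -0.33 with SQ1 and -2.98, -2.50 and -1.68 with pravastatin, below 0 on every array. Its log2 fold changes were -0.91 ± 0.17 with SQ1 and -2.42 ± 0.17 with pravastatin (5.36-fold lower), with adjusted p of 0.000581 and 2.20e-09 over all 25826 probes fitted. By this probe the drugs differed by 1.51 ± 0.23 (adjusted p = 5.84e-05). Both probes were lower with each drug, and the size of the fall depends on the probe. With median centring in place of loess, the brighter probe gave -0.07 with SQ1 (adjusted p = 0.601) and -0.18 with pravastatin (adjusted p = 0.0848). Its SQ1 call was also lost with slide as a random block (adjusted p = 0.140) and within each slide.

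**Figure D2:**
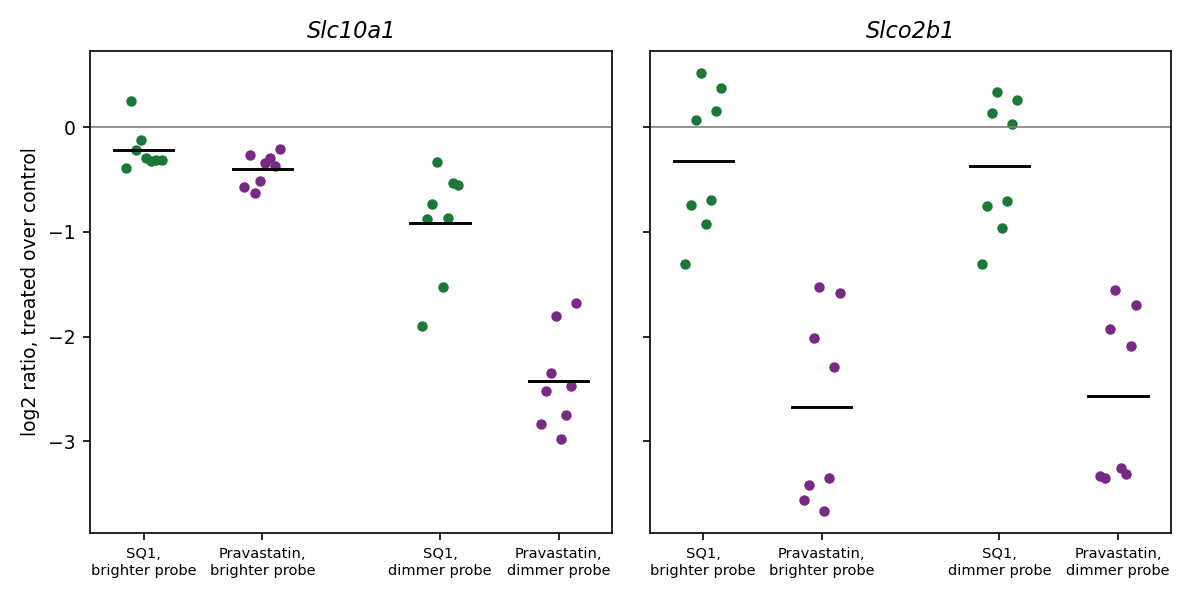
Log2 ratio of treated over control signal per array for the brighter and the dimmer probe of Slc10a1 and of Slco2b1, with SQ1 in green and pravastatin in purple and black bars at the mean. The pravastatin arrays of Slc10a1 lie between -0.63 and -0.21 by the brighter probe and between -2.98 and -1.68 by the dimmer one, while the probes of Slco2b1 give similar values.

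Among the canalicular pumps, those for bile salts and phospholipid fell with pravastatin and that for conjugated anions rose with both drugs. Abcb11, the bile salt export pump BSEP, had ratios of -1.38, -0.57 and 0.03 with SQ1 and -3.48, -2.83 and -2.25 with pravastatin. Its level was 9.60, 9.94 and 10.4 in pravastatin-treated cells, against 11.7, 13.1 and 13.7 in their controls, with no overlap. The log2 fold change was -0.58 ± 0.15 with SQ1 (adjusted p = 0.00741) and -2.85 ± 0.15 with pravastatin (7.23-fold lower, adjusted p = 9.80e-11). The drugs differed by 2.27 ± 0.21 (adjusted p = 2.58e-07). The SQ1 call was lost with median centring (-0.46, adjusted p = 0.103).

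Abcb4, known as MDR2 in the mouse, moves phosphatidylcholine into bile, where it forms micelles with bile salts. Its ratios were -0.76, -0.05 and 0.34 with SQ1, on both sides of 0, and -2.32, -1.48 and -0.89 with pravastatin, all below 0. The log2 fold change was -0.08 ± 0.14 with SQ1 (adjusted p = 0.727) and -1.50 ± 0.14 with pravastatin (2.83-fold lower, adjusted p = 9.84e-08). The drugs differed by 1.42 ± 0.20 (adjusted p = 2.07e-05).

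Abcc2 (MRP2) exports glucuronide and glutathione conjugates, bilirubin glucuronide and pravastatin itself into bile. It is the only transporter of the 10 that rose with both drugs, and its promoter is shown for that reason. The 120 bases before its RefSeq start, chr19:43782188-43782307 of GRCm38.p6 on the plus strand, read 5′ to 3′ with a match to the antioxidant element TGACNNNGC in capitals:
Abcc2: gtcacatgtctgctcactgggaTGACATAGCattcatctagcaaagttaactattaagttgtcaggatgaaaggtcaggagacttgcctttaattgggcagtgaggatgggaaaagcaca

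This match begins at base -98, and 12.4% of the longer promoter windows named above held the motif.

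The ratios of Abcc2 were 0.12, 0.40 and 0.69 with SQ1 and 0.13, 0.30 and 0.53 with pravastatin. They were above 0 on all 16 arrays and overlapped between the drugs. The level was 13.9, 14.1 and 14.3 in SQ1-treated cells, against 13.5, 13.6 and 13.8 in their controls. Log2 fold changes were 0.44 ± 0.05 with SQ1 (1.35-fold, adjusted p = 1.70e-05) and 0.31 ± 0.05 with pravastatin (1.24-fold, adjusted p = 8.57e-05). The difference was 0.13, with a 95% interval of -0.04 to 0.29 (adjusted p = 0.183, or 0.0211 within replicate numbers).

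The carriers back to blood had small fold changes. Abcc3 (MRP3), which exports conjugates across the basolateral membrane, had ratios of -0.28, -0.08 and 0.13 with SQ1 and -0.42, -0.21 and 0.10 with pravastatin, overlapping between the drugs. Log2 fold changes were -0.07 ± 0.05 with SQ1 (adjusted p = 0.299) and -0.19 ± 0.05 with pravastatin (adjusted p = 0.00340). The pravastatin call was lost with the Agilent processed signals (-0.10, adjusted p = 0.120) and with median centring (-0.01, adjusted p = 0.955). The difference between the drugs was 0.12 ± 0.07 (adjusted p = 0.183, or 0.00752 within replicate numbers).

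Slc51b encodes OSTβ, the smaller subunit of the basolateral organic solute transporter, and is known as a target of the bile acid receptor FXR. Its ratios were 0.19, 0.36 and 0.59 with SQ1, above 0 on 8 of 8 arrays, and -0.39, -0.18 and 0.11 with pravastatin, below 0 on 7 of 8. The arrays of the drugs did not overlap. Slc51b rose with SQ1 by 0.38 ± 0.06 (1.301-fold, adjusted p = 8.65e-05) and had a log2 fold change of -0.17 ± 0.06 with pravastatin (adjusted p = 0.0158), a difference of 0.54 ± 0.08 (adjusted p = 2.74e-05). The pravastatin call was lost without pravastatin replicate 2 (adjusted p = 0.0578), without pravastatin replicate 5 (0.0547) and with slide as a random block (0.0974). The probe was dim, with a mean log2 intensity of 6.98, though well above background in every channel. With the Agilent processed signals the log2 fold change of Slc51b was 0.85 with SQ1 and -0.59 with pravastatin. Its partner subunit Slc51a did not pass the filter for testing.

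Set drug against drug, 6 of the 10 transporters passed the test, namely Slco1a4, Slco1b2, Slco2b1, Abcb11, Abcb4 and Slc51b, and all 6 were higher with SQ1. Over all genes, 53.1% passed in this comparison, 29.3% higher and 23.8% lower with SQ1. Taken within replicate numbers, all 10 transporters passed and were higher with SQ1, against 34.0% of all genes that were higher. This pairing was read from the same data and is uncertain, as only 3 of the 8 numbers matched their own number best. With the number as a random block it was 9 of 10, all except Slco1a1, against 34.6%. Each drug was hybridized on its own 2 slides, so drug and slide cannot be told apart in this comparison, and 4 of the 8 pravastatin arrays were scanned on another day than all SQ1 arrays.

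Size differed between slides for several transporters. Replicates 3, 4, 7 and 8 sat on slide 2 for SQ1 and slide 4 for pravastatin, and replicates 1, 2, 5 and 6 on slides 1 and 3, so slide and replicate set cannot be told apart. Slide 3 was scanned on another day than slides 1, 2 and 4, so scan day too cannot be told apart from the gap between slides 4 and 3. Among the 10 transporters, 5 passed within slide 2 and 7 within slide 1, against 27.0% and 34.8% of all genes. Within slide 4 it was 8, and within slide 3 all 10, against 57.5% and 64.3%. The slides differed for 6 transporters with SQ1, where 12.3% of all genes differed, and for 5 with pravastatin, where 21.8% did.

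Slco2b1 differed most clearly between slides. Its SQ1 log2 fold change was 0.28 on slide 2 (adjusted p = 0.0933) and -0.92 on slide 1 (adjusted p = 2.87e-05), and the slides differed by 1.20 ± 0.17 (adjusted p = 0.00105). With pravastatin it was -1.85 on slide 4 and -3.50 on slide 3 (adjusted p of the difference 3.06e-05). Slco1b2 showed -0.60 on slide 2 and -1.86 on slide 1 with SQ1 (adjusted p of the difference 0.0101), and -3.51 on slide 4 and -4.90 on slide 3 with pravastatin (adjusted p of the difference 0.00269). It was below 0 on all 4 slides.

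Abcb11 gave -0.20 on slide 2, where it did not pass (adjusted p = 0.220), and -0.96 on slide 1 with SQ1. The pravastatin values of Abcb11 were -2.50 on slide 4 and -3.20 on slide 3. Abcb4 with pravastatin was -1.07 on slide 4 and -1.93 on slide 3 (adjusted p of the difference 0.00189). The rise of Slco1a4 with SQ1 was 0.55 on slide 2 and 0.03 on slide 1, with an adjusted p of 0.0343 for the difference. Abcc2 rose on all 4 slides, by 0.59 on slide 2 and 0.29 on slide 1 with SQ1 and by 0.39 on slide 4 and 0.24 on slide 3 with pravastatin. Abcc3 and Slc51b did not pass for pravastatin within slide 4.

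**Figure D3:**
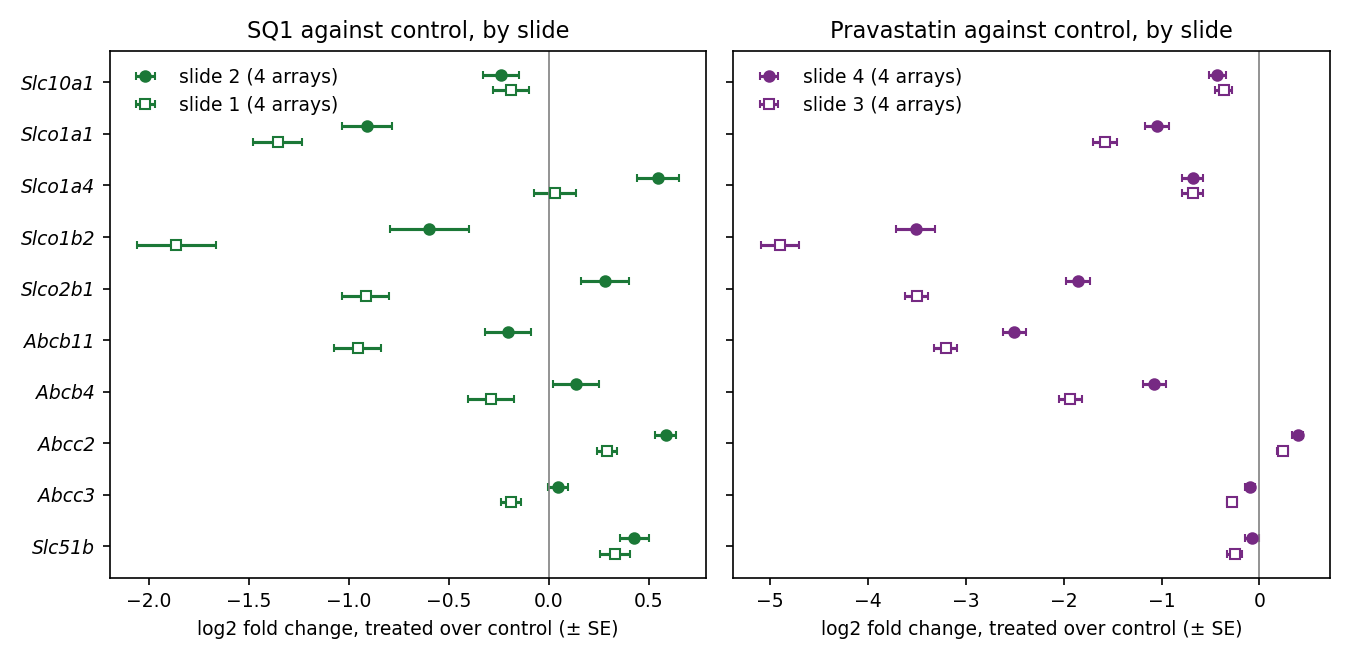
Log2 fold change of each transporter within each slide of 4 arrays (points, with standard errors as bars), for SQ1 on the left and pravastatin on the right, each panel with its own horizontal scale. Slco1b2 with pravastatin lies at -3.51 on slide 4 and -4.90 on slide 3, and Slco2b1 with SQ1 lies on opposite sides of 0 on slides 2 and 1.

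The gap between slides lay mostly in the control channels for Slco1b2 and Slco2b1. The level of Slco1b2 in SQ1-treated cells was 11.8 on slide 2 and 11.8 on slide 1, while in their controls it was 12.4 on slide 2 and 13.6 on slide 1. In pravastatin-treated cells it was 8.85 on slide 4 and 8.80 on slide 3, against controls at 12.4 and 13.7. For Slco2b1 the level was 10.5 on slide 2 and 10.6 on slide 1 in SQ1-treated cells, against controls at 10.2 and 11.5. In pravastatin-treated cells it was 8.51 on slide 4 and 8.11 on slide 3, against controls at 10.4 and 11.6. For both genes the treated levels of a drug differed less between slides than the control levels, and every control channel of replicates 3, 4, 7 and 8 was lower than those of replicates 1, 2, 5 and 6. Abcb11 differed in part: in SQ1-treated cells too its level was lower on slide 2, at 11.9, than on slide 1, at 12.4, and the controls were at 12.1 on slide 2 and 13.4 on slide 1.

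**Figure D4:**
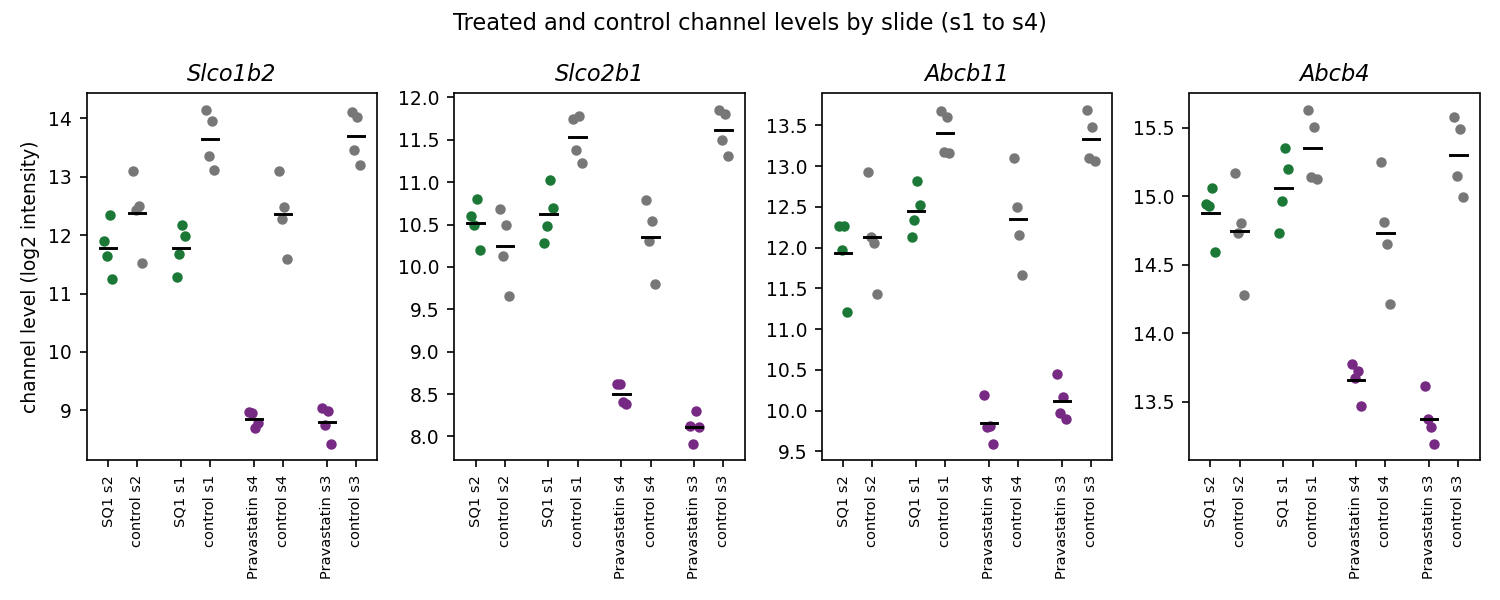
Log2 intensity of the treated channel (green for SQ1, purple for pravastatin) and of the control channel (grey) on each array, by slide (s1 to s4), for 4 transporters, with black bars at the mean and a scale of its own in each panel. The control channels of Slco1b2 average 12.4 on slides 2 and 4 and 13.6 and 13.7 on slides 1 and 3, while its treated channels average 11.8 on both SQ1 slides.

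For each transporter, the gene with the most similar ratios over the 16 arrays was found by the root mean square difference, as a description. For Slco1b2 this was Arrdc3 (0.453), for Slco2b1 Akr1c14 (0.266) and for Abcb11 Enpp2 (0.182). For Abcb4 it was Glyat (0.164), which conjugates glycine to acyl groups, and for Slco1a1 Rgn (0.358). Slco1a4 was nearest to Mtnr1a (0.195), Abcc2 to Atp6v0a1 (0.151), Abcc3 to Tmem214 (0.0630) and Slc51b to E030003E18Rik (0.102). The brighter probe of Slc10a1 was nearest to Elk1 (0.0572).

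A list of 28 further bile acid, drug and lipid transporters had 25 tested members. With SQ1, 4 rose and 3 fell (median -0.06), and with pravastatin 6 rose and 15 fell (median -0.30). Over all genes tested, 15.7% were higher and 16.5% lower with SQ1, and 30.9% higher and 35.8% lower with pravastatin. Abcc4 (MRP4), another basolateral exporter of bile acids, rose by 0.59 ± 0.15 with SQ1 (adjusted p = 0.00507) and by 2.07 ± 0.15 with pravastatin (adjusted p = 2.71e-09). With pravastatin Slc27a2, a fatty acid transport protein and very long chain acyl-CoA synthetase, had a log2 fold change of -3.13 ± 0.20 (adjusted p = 8.07e-10). Abcg5, a subunit of the canalicular sterol pump, was at -2.05 ± 0.17 (adjusted p = 2.61e-08). With SQ1, Slc10a2, the bile acid carrier of ileum and cholangiocytes, was at -0.49 ± 0.09 (adjusted p = 0.000526), and Slco4a1, a carrier of thyroid hormone, rose by 0.34 ± 0.06 (adjusted p = 0.000552). Set drug against drug, 15 of the 25 were higher with SQ1 and 5 lower, where 29.3% of all genes were higher and 23.8% lower.

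**Figure D5:**
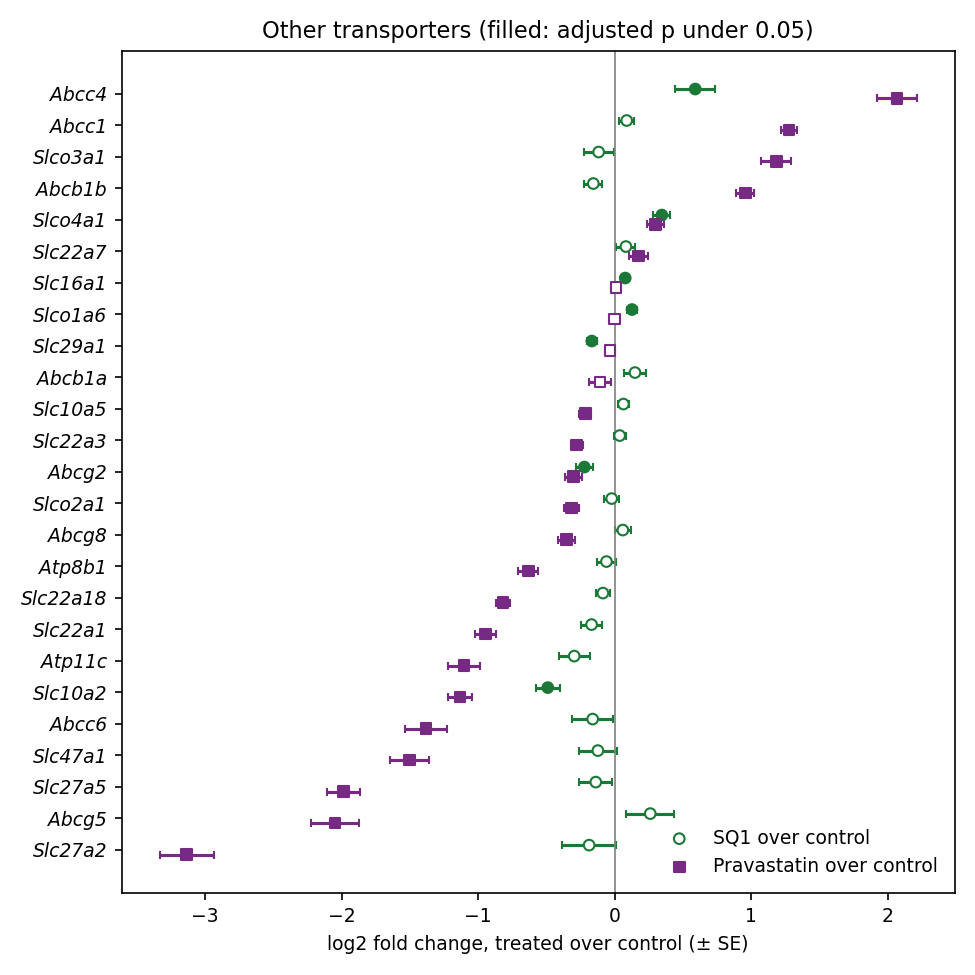
Log2 fold change with standard error of the 25 other transporters, ordered by the pravastatin value, with SQ1 as green circles and pravastatin as purple squares, filled where the adjusted p was under 0.05. Abcc4 rises to 2.07 and Slc27a2 lies at -3.13 with pravastatin, while with SQ1 Abcc4 lies at 0.59 and Slc27a2 at -0.19.

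The nuclear receptors and liver transcription factors known to control these transporters were tested in full, 16 of 16. With SQ1, 5 rose and 1 fell (median 0.09), and with pravastatin 2 rose and 12 fell (median -0.78). The shares over all genes were 15.7% higher and 16.5% lower with SQ1, and 30.9% higher and 35.8% lower with pravastatin. Nr1i2, which encodes PXR, went in opposite directions, 0.26 ± 0.07 with SQ1 (adjusted p = 0.00902) and -1.52 ± 0.07 with pravastatin (adjusted p = 2.33e-11). Foxa1, a pioneer factor of liver, rose by 0.24 ± 0.03 with SQ1 (adjusted p = 3.88e-06), as did Rxra, the shared partner of these receptors, by 0.24 ± 0.05 (adjusted p = 0.00119). With pravastatin, Nr1h4, the bile acid receptor FXR, was at -2.005 ± 0.14 (adjusted p = 2.71e-09), and Nr1i3, which encodes the xenobiotic receptor CAR, at -1.93 ± 0.19 (adjusted p = 1.28e-07). Set drug against drug, 12 of 16 were higher with SQ1 and 1 lower, where 29.3% of all genes were higher and 23.8% lower.

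Of the enzymes of bile acid synthesis and conjugation, 10 of 12 were tested, and Cyp7a1, the rate-limiting enzyme, and Cyp8b1 did not pass the filter. With SQ1, 1 rose and 2 fell (median -0.11), where 15.7% of all genes were higher and 16.5% lower. With pravastatin all 10 fell (median -1.19), where 35.8% of all genes were lower. Baat, which conjugates bile acids to taurine and glycine, fell by 3.66 ± 0.15 on the log2 scale with pravastatin (adjusted p = 7.71e-12), and Akr1d1, a steroid reductase of the pathway, by 2.21 ± 0.19 (adjusted p = 4.09e-08). Scp2, a peroxisomal thiolase of side-chain shortening, was at -0.30 ± 0.11 with SQ1 (adjusted p = 0.0479) and -2.01 ± 0.11 with pravastatin (adjusted p = 1.32e-10). With SQ1, Hsd17b4, a peroxisomal enzyme of side-chain oxidation, rose by 0.26 ± 0.07 (adjusted p = 0.00649), and Hsd3b7, which acts on the sterol ring, was at -0.18 ± 0.05 (adjusted p = 0.0188).

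Of 16 listed proteins that anchor carriers at the canaliculus or traffic them there, 14 were tested. With SQ1, 2 rose and 12 did not pass, where 32.3% of all genes passed. With pravastatin, 4 rose and 5 fell (median -0.0065), where 30.9% of all genes were higher and 35.8% lower. Pdzk1, a scaffold for carriers at the membrane, was at -2.27 ± 0.12 with pravastatin (adjusted p = 2.49e-10), the tight junction gene Cldn1 at -1.96 ± 0.12 (adjusted p = 7.68e-10), and Msn, which links membrane proteins to actin, rose by 1.07 ± 0.12 (adjusted p = 6.63e-07). With SQ1, Myo5b, a motor of apical recycling, rose by 0.18 ± 0.04 (adjusted p = 0.00114), and Vipas39, a vesicle trafficking protein, by 0.09 ± 0.03 (adjusted p = 0.0381).

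Promoter windows of 250 bases before to 50 after the start were found in RefSeq for 9 of the 10 transporters and searched on both strands for 8 motifs. A transporter was counted if any of its windows matched, while the shares of all windows count single windows. Slc10a1 had 2 windows and Slco2b1 had 3, so the 2 measures are not quite alike. TATAAA was found in 3 of the 9 and in 13.6% of all windows, CCAAT in 4 and 37.4%, and GGGCGG in 1 and 35.7%. The C/EBP motif TTGCNNAAT was found in 1, Slc10a1, and in 2.4% of all windows. The HNF4 motif CAAAGTCCA and the FXR inverted repeat GGTCANTGA were found in none of the 9, and in 0.475% and 0.84% of all windows. The HNF1 and antioxidant motifs each matched 1 transporter, as printed above, and the antioxidant letters do not overlap those of the other motifs in Abcc2.

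Hepatocyte markers moved with the drugs as well. The marker counts below stand against 15.7% of all genes higher and 16.5% lower with SQ1. With pravastatin these shares were 30.9% and 35.8%. All 8 hepatocyte markers were well above background in every channel. Of these, 5 fell and 3 did not pass with SQ1, where Hpd and Tat, both of tyrosine breakdown, were at -0.92 and -0.72. All 8 fell with pravastatin, where Cyp3a11 was at -4.58 and Hpd at -2.30. The mean ratio of this list per array ran from -0.82 to 0.07 with SQ1 and from -2.39 to -1.62 with pravastatin. The part of this shift in the transporter values was not tested. Markers of other liver cells were also measured. Of 9 tested Kupffer cell and leukocyte markers, all well above background in every channel, 5 fell with SQ1 and 7 with pravastatin, with mean ratios per array of -0.36 to -0.21 with SQ1 and -0.70 to -0.32 with pravastatin. The most changed were Cd5l (-0.79) and Adgre1 (-0.64) with SQ1 and Vsig4 (-1.08) and C1qa (-0.86) with pravastatin. Of 8 cholangiocyte markers, 4 fell with each drug and 1 rose with pravastatin (-0.43 to -0.03 with SQ1, -0.41 to -0.05 with pravastatin), and Muc1 was well above background in only 2 of 16 control channels. The most changed were Spp1 (-0.65) and Krt19 (-0.50) with SQ1 and Slc10a2 (-1.13) and Sox9 (-0.55) with pravastatin. Endothelial markers gave 3 of 8 higher and 5 not past the test with SQ1, and 3 higher and 4 lower with pravastatin (-0.06 to 0.37 with SQ1, -0.23 to 0.12 with pravastatin). Lyve1 was at 0.47 with SQ1 and -0.48 with pravastatin, Stab1 at 0.26 with SQ1 and Stab2 at -0.59 with pravastatin. Of 8 stellate cell and fibroblast markers, 1 rose and 1 fell with SQ1 and 2 fell with pravastatin (-0.22 to 0.35 with SQ1, -0.30 to 0.06 with pravastatin). Lrat, which stores retinol as esters, rose by 0.95 with SQ1, Acta2 was at -0.37 with pravastatin, and Reln was at -0.11 with each drug. Their part in the transporter values was not tested.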

How the data were processed

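Treated and control RNA (500 ng each) was hybridized in 16 pairs on 2-colour Agilent arrays, and the 2 drugs may share control cultures. The deposited scanner files give median spot and background intensities, left unnormalized by the authors. Per the file headers they also give Agilent Feature Extraction 11.0.1.1 processed signals and a red over green ratio on the log10 scale, together with outlier and background marks. The deposited series table holds values on the log2 scale that correlated with the treated over control Agilent ratio at 0.742 to 0.999 per array over all probes, and at 0.995 or above over the genes tested. Its scale and direction follow from this check, and whether its genes were centred is not stated.

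Intensities were read into R 4.3.3 with limma 3.58.1, background-corrected by normexp (offset 50) and loess-normalized within each array. Of 39429 probes, 27234 were named through RefSeq accessions, for 20659 genes. A probe was kept if well above background on at least 4 treated channels of a drug or 8 control channels and if it had a ratio on 7 or more arrays per drug. The brightest probe stood for a gene, which left 15053 genes. Ratios turned to treated over control were fitted with limma, with a term for each drug and for the dye (13 residual degrees of freedom). Tests were two-sided, with Benjamini-Hochberg adjustment at 0.05. The series calls the samples biological replicates, and p-values measure the spread between these arrays. The test was checked on simulated data. The number of arrays limits the precision, with a median standard error of 0.04 per drug. The share of probes well above background was 58.9% to 69.6% in treated and 59.4% to 68.0% in control channels.

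Replicate numbers in the sample titles are shared by both drugs. Deviations of same-numbered arrays from their group means correlated at 0.22 to 0.72 in all 8 pairs, which was taken as pairing, although the best match was the own number for 3 of the 8 numbers and another for 5. The pairing is thus a reading of the data. Same-numbered arrays of both drugs also fell in the same replicate set by slide, so these correlations may hold the gap between slides too. The control level of Slco1b2 was close between same-numbered arrays. It was 14.1 on the replicate 1 array of each drug, and 11.5 (SQ1) and 11.6 (pravastatin) on the replicate 8 arrays. The main test of the difference between the drugs used no block, and blocked values are given where they change a call. Slides of 4 arrays held 1 drug each.

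Members and gene lists were chosen with earlier results of these data known. Named list genes were those with the largest change among the called, 3 per list and drug (2 per marker list). The other probes of Slc10a1 and Slco2b1 were set as an alternative after seeing the data. The plan had named mean spot signals, and the files hold medians.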

Additional observations from a re-analysis of the deposited data

Results flagged for a closer look

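The ratio of Slc10a1 (brighter probe) on SQ1 replicate 2 was 0.247, while the nearest of the other 7 arrays was at -0.117. The gap was 0.574 of the whole range, over the Dixon limit of 0.526 for 8 samples. It was the only such array among 20 sets of 8, of which chance flags about 1 in 20.

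Slco1a4 and Slc51b went in opposite directions with SQ1 and pravastatin, and the difference between the drugs passed the test, at 0.972 for Slco1a4 (adjusted p = 1.73e-05) and 0.545 for Slc51b (adjusted p = 2.74e-05). Within slide 1, however, Slco1a4 with SQ1 was at 0.03 (adjusted p = 0.845). Within slide 4, Slc51b with pravastatin was at -0.08 (adjusted p = 0.393). Drug and slide cannot be told apart in the difference.

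The fold change with SQ1 differed between slides for Slco2b1 and Abcc3, with opposite signs of which only the negative ones passed the test. Slco2b1 was at 0.281 on slide 2 (adjusted p = 0.0933) and -0.916 on slide 1 (adjusted p = 2.87e-05), and Abcc3 at 0.0443 on slide 2 (adjusted p = 0.550) and -0.187 on slide 1 (adjusted p = 0.00823). Slide 2 minus slide 1 was 1.197 for Slco2b1 (adjusted p = 0.00105) and 0.232 for Abcc3 (adjusted p = 0.0438).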

How the results depend on the processing

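Alternatives to the background correction, normalization, filter, probe choice, block, array weights and threshold, and leaving out each array in turn, gave 890 further values for the 10 transporters. Of these, 848 kept their side of the threshold, 27 lost the call and 15 gained it. Many alternatives could not move an estimate, so these counts do not measure robustness. Leaving out a pravastatin array, either filter, and the slide and replicate blocks left the SQ1 value of Slco1b2 at -1.23. The deposited series table repeated the Agilent processed signals, both at -2.42 for Slco1a1 with SQ1. Among the 848, 6 changed sign without passing in either setting, all with SQ1. Within slide 2, Slco2b1 was at 0.281, Abcb4 at 0.136 and Abcc3 at 0.0443; with median centring Abcb4 was at 0.0532 and Abcc3 at 0.0554; and without SQ1 replicate 1 Abcb4 was at 0.0280. No transporter that passed changed sign. The number of transporters called ranged from 5 to 7 with SQ1, from 8 to 10 with pravastatin and from 6 to 10 for the difference between the drugs, where the replicate block with differences taken within each number gave 10. Leaving out 1 array gave 6 to 7 with SQ1, 9 to 10 with pravastatin and 6 to 7 for the difference. The replicate block changed no other call of a transporter than those of Slc10a1, Slco1a1, Abcc2 and Abcc3 in the difference. Without SQ1 replicate 6 the difference for Abcc2 passed (adjusted p = 0.0442), and so did that for Abcc3 without pravastatin replicate 7 (0.0417). Among other named genes, 64 values changed sign without passing in either setting, and results of 2 genes turned to a call with the opposite sign. Akr1c14 with SQ1 was at -0.0502 in all arrays and 0.595 within slide 2, and Vipas39 with pravastatin was at -0.0045 with loess and 0.0924 with both the Agilent processed signals and the deposited series table. The cause was not tested.

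Over all genes, 4860 passed with SQ1, but 2071 with median centring, 2543 with a random block for slide and 2239 with one for scan day. The difference between the drugs had 7996 calls, and 3697 with median centring. Median centring also moved the balance of higher against lower calls, to 1473 against 598 with SQ1 (2369 against 2491 with loess) and 4374 against 2797 with pravastatin (4648 against 5393), and the Agilent signals moved it to 6087 against 4622 with pravastatin. The sizes of the changes of Slco1a1, Slco1a4 and Slc51b depended on the background correction. Treated channels were not all well above background for Slco1a1 with either drug and for Slco1a4 with pravastatin, and they were for Slc51b.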
